A study of Mus musculus with 4 samples.

Results

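The cell cycle and DNA replication genes described here are 42 genes of the origin licensing, replication fork, cyclin, spindle and centromere machinery, chosen by name. Earlier results of these data were known when they were chosen, so the shares of all genes given beside them describe and do not test. Probes were taken where the scanner files name 1 of these genes, which gave 58 probes among 39429, and each gene was represented by its brightest probe, so that 42 of 28140 genes on the array are covered. They were measured in bronchial epithelial cells isolated from mouse lungs in an allergic asthma model, on 4 single-colour Agilent arrays with 1 array per group. The groups were challenged mice labelled Pla2g3-/-, challenged wild-type mice (Pla2g3+/+), control mice labelled Pla2g3-/-, and control wild-type mice. Pla2g3 encodes the group III member of the secreted phospholipases A2, enzymes that cleave membrane phospholipids. Per the labels, ovalbumin (OVA, 10 µg with 1.3 mg alum adjuvant, in 0.2 ml) was injected on days 0 and 14. Challenge was by aerosol of 1% OVA, for 30 min daily on days 26 to 28, with lungs collected 3 h after it. Each array carried RNA pooled from 4 samples. The sources used here do not give what control mice received, how the Pla2g3 allele was made, or the strain, sex and age of the mice. Since each group is 1 array, the differences between pairs of arrays come without replicates and without p-values.

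Before a cell divides it copies its genome and then parts the copies. In G1 the origin recognition complex, Cdc6 and Cdt1 load the Mcm2 to Mcm7 helicase onto origins of replication. In S phase the sliding clamp Pcna tethers DNA polymerases while ribonucleotide reductase, thymidine kinase and thymidylate synthase supply nucleotides. Cyclins A and B with Cdk1 then drive entry into mitosis, where aurora and polo kinases, kinesins and the spindle checkpoint act until the anaphase-promoting complex releases the chromosomes. Genes of the first steps are classic targets of E2F factors, whereas many mitotic genes are switched on later through promoter elements called CHR and CCAAT boxes. Airway epithelium divides slowly at rest and more often after injury, while developing lymphocytes are among the most actively dividing cells of the body.

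A level is the log2 of a probe's intensity over the 75th percentile of intensities on its array, which lay between 1808 and 1986 units, and a difference is a difference of such levels, so that 1 is 2-fold. Between 79.2% and 81.9% of the spots on an array were well above background, and 40 of the 42 genes were so on all 4 arrays. Probe positions are those of the files, on the mm9 build, where the Mcm5 probe lies at chr8:77651350-77651410 and the Top2a probe at chr11:98855522-98855581, while the Cenpa and Kif23 probes are not placed. An exon annotation of that build was not used here. Levels of different probes are not compared, since probes differ in brightness for the same amount of RNA. The error that the scanner software assigns to a difference (the scanner error below) was 0.20 to 0.21 for these 40 genes, and it covers neither the mice nor the cell isolation. The gene named in the labels went against them: Pla2g3 had levels of 1.07 on the challenged array labelled Pla2g3-/- and -2.83 on the challenged wild-type array, and 0.14 on the control array labelled Pla2g3-/- and -3.05 on the wild-type control array. The sources used here do not say whether the probe lies in the deleted part, and the genotype is therefore called a label throughout. The 6 general epithelial markers were bright, with differences between -0.23 and 0.44. Epcam had levels of 1.26 and 1.29 on the challenged arrays labelled Pla2g3-/- and wild type, and 1.26 and 1.33 on the control arrays labelled Pla2g3-/- and wild type. The 5 club cell genes differed by -0.32 to 0.20. Some other epithelial genes moved more. With challenge, basal Krt14 was 1.43 higher in cells labelled Pla2g3-/- and 0.92 in wild-type cells, and alveolar Sftpb -1.325 and -0.75 different. All 6 ciliated genes were lower on the control array labelled Pla2g3-/- than on the wild-type control (median -0.33). Markers of developing T cells were not alike across the arrays. The summed level of 12 thymocyte genes, in multiples of the 75th percentile, was 4.64 and 3.57 on the challenged arrays labelled Pla2g3-/- and wild type, against 30.1 and 4.04 on the control arrays labelled Pla2g3-/- and wild type. The low sums rest most on Cd4, which had levels of 1.35, 1.33, 1.89 and 1.41 in that order of arrays. Median levels of the 12 genes were -3.02, -4.93, 0.09 and -4.11 in the same order. The control array labelled Pla2g3-/- enters the challenge comparison within that label and the genotype comparison without challenge.

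RefSeq promoters (GRCm38.p6, from 250 bases before to 50 bases after the start of transcription) were matched by symbol for 34 of the 42 genes. The promoters of Mcm4, Ccnd1, Ccne2, Foxm1, Ccna2, Aurkb, Kif20a and Tpx2 were not searched. Whether RefSeq holds a promoter for each of these, Kif20a included, is left open. Promoters are shown for 8 genes because the genes of licensing and of mitosis differed most in how they moved between arrays. Each stretch holds the 160 bases just before the start. The first 3 are licensing genes, and capitals mark E2F motifs, here any of TTTCGCGC, TTTGGCGC, TTTCCCGC and TTTGCCGC on either strand. Matches on the 2 strands overlap in Mcm5 and at 1 place in Mcm6. The positions are chr8:75109349-75109508 on the plus strand for Mcm5, chr1:128359706-128359865 on the minus strand for Mcm6, and chr11:98907991-98908150 on the plus strand for Cdc6.
Mcm5: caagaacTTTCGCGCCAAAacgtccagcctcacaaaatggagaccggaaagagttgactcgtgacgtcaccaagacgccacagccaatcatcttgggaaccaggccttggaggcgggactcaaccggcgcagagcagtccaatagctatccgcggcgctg
Mcm6: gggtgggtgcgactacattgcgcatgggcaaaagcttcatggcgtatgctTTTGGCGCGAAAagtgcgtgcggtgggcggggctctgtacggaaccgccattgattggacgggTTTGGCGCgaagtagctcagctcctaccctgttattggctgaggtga
Cdc6: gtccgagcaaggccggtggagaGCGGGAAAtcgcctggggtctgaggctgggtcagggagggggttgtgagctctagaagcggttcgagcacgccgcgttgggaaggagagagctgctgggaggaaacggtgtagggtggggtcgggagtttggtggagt

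The next 4 stretches belong to Top2a (chr11:99024190-99024349, minus strand), Cdc20 (chr4:118437344-118437503, minus strand), Kif11 (chr19:37376222-37376381, plus strand) and Ube2c (chr2:164769769-164769928, plus strand), which act late in the cycle. Capitals mark the CHR motif TTTGAA and the CCAAT motif on either strand.
Top2a: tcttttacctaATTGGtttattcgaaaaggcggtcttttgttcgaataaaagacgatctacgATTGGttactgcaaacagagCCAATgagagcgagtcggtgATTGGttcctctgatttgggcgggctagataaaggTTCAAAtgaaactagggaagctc
Cdc20: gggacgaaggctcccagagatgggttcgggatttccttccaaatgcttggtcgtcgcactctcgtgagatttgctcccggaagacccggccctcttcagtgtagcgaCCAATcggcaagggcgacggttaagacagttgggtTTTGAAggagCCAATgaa
Kif11: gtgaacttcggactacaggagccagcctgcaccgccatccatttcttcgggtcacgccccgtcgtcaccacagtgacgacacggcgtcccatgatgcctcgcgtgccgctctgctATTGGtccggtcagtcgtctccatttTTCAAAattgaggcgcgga
Ube2c: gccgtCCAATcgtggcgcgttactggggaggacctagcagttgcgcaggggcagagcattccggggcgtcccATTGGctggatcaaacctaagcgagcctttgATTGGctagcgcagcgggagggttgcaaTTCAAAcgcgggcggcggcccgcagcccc
Cdk1 (chr10:69352913-69353072, minus strand) is shown as the mitotic gene, of those searched, whose promoter holds all 3 motifs, all of which are in capitals.
Cdk1: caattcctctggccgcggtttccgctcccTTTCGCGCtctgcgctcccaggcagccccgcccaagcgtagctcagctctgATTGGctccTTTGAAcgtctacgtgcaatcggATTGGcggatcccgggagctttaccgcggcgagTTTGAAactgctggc

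Among the windows of 300 bases of all 27025 genes with a RefSeq promoter, 2.6% held an E2F motif, 20.2% a CHR motif, 41.1% a CCAAT motif and 7.97% both of the last 2 motifs. Of 7 licensing genes with a promoter, 6 held an E2F motif (all but Mcm2) and 1 a CHR motif (Mcm2). Of 16 mitotic genes whose promoter was searched, 1 held an E2F motif (Cdk1), and 11 held both a CHR and a CCAAT motif. The mitotic genes Ccna2, Aurkb, Kif20a and Tpx2 are not among the 16. None of the 5 fork and nucleotide genes (Pcna, Rrm1, Rrm2, Tyms and Tk1) held an E2F or a CHR motif, and 3 of them held a CCAAT motif. A missing match says only that these letters are not in the window, and a match is a stretch of letters, not a site shown to be bound in these cells.

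Across the 4 arrays the 42 genes split by their role in the cycle, and the control array labelled Pla2g3-/- was highest for most of them. Of the 40 genes well above background on all arrays, 35 were highest on the control array labelled Pla2g3-/-, and 24 were lowest on the challenged wild-type array, beside 27.7% and 17.9% of all 21812 such genes. All 19 mitotic genes with values on all arrays shared that order of highest and lowest, the mitotic genes being the mitotic cyclins and Cdk1, the mitotic kinases and checkpoint genes, and the spindle, anaphase and centromere genes, joined after their values were seen. The 8 licensing genes did not share it: 4 of them were highest on the challenged wild-type array, 4 on the control array labelled Pla2g3-/-, and none was lowest on the challenged wild-type array. In bulk RNA such as this, fewer dividing cells and less of a gene's RNA per cell cannot be told apart.

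**Figure D1:**
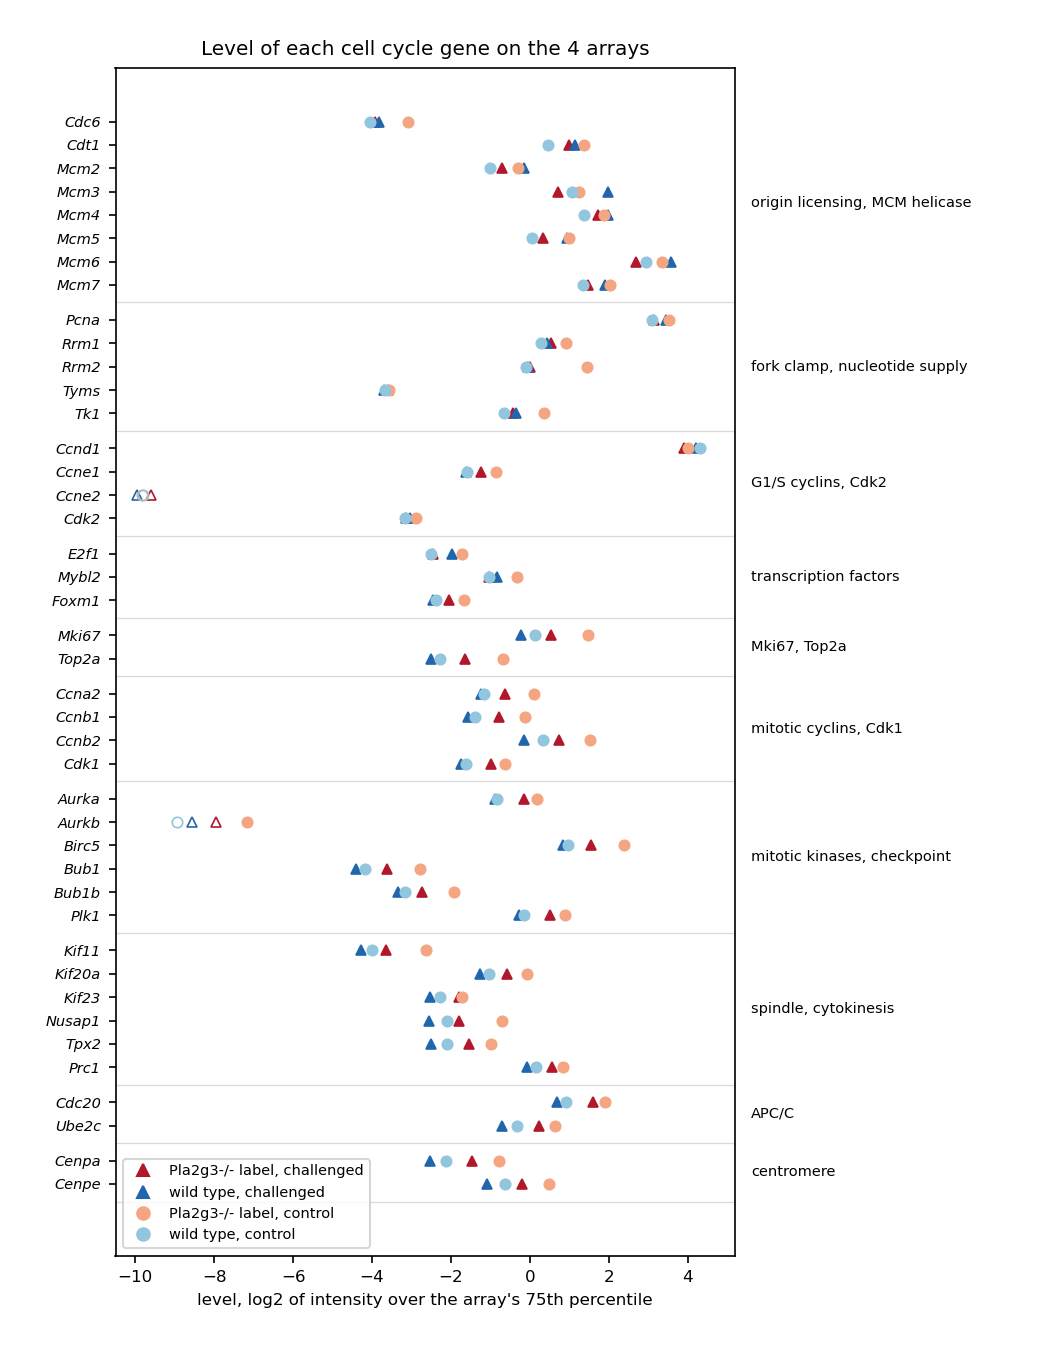
Levels of the 42 genes on the 4 arrays, with 1 point per array. The horizontal axis is the log2 of intensity over the array's 75th percentile, triangles are challenged and circles control arrays, red and orange are labelled Pla2g3-/- and blues wild type, and open symbols are not well above background. In the mitotic groups the control array labelled Pla2g3-/- lies farthest right and the challenged wild-type array farthest left, apart from Aurkb, which was well above background on 1 array only.

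In wild-type cells the licensing genes were higher after challenge, and the mitotic genes slightly lower. The median difference over 40 genes with a value was -0.10, with 15 higher and 25 lower, beside a median of -0.03 over 23631 genes tested. Of those 23631 genes, 45.7% were higher and 54.3% lower. None of the 40 reached 2-fold in either direction, a size that 1.82% of all genes reached upwards and 1.69% downwards. At 1.5-fold, 6 of the 40 were higher and 0 lower, beside 4.61% and 5.3% of all genes. Past the scanner error lay 11 of the 40 genes on the higher side, 8 of them licensing genes, and 14 on the lower side, 12 of them mitotic, beside 16.7% and 22.2% of all genes. Against the control array labelled Pla2g3-/- instead, the median of the challenged wild-type array was -0.91, with 20 genes at least 2-fold lower. Markers of other cells differed here too: 8 of 12 thymocyte, 9 of 10 T cell and 8 of 8 B cell genes were lower with challenge (medians -0.48, -0.64 and -1.22), and 5 of 7 neutrophil genes were at least 2-fold higher. Their part was not tested. In cells labelled Pla2g3-/-, by contrast, all 41 genes with a value were lower on the challenged array, beside 57.6% of all genes. Their median was -0.55, beside -0.06 over 23298 genes. Of the 41, 3 were at least 2-fold lower (Rrm2, Kif11 and Nusap1), which is 7.32% of them beside 3.45% of all genes, and 0 were 2-fold higher beside 3.88%. At 1.5-fold, 19 were lower and 0 higher, beside 10.0% and 7.79% of all genes. That comparison rests on the control array labelled Pla2g3-/-, on which the thymocyte and T cell markers were high: 11 of 12 and 10 of 10 of them were at least 2-fold lower with challenge. At least 2-fold higher with challenge were 6 of 7 neutrophil markers and 4 of 6 endothelial markers (endothelial median 1.40). Set against the wild-type control array instead, the challenged array labelled Pla2g3-/- gave a median of 0.39, with none of the genes 2-fold lower.

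Between the genotype labels without challenge, nearly the whole set was higher in cells labelled Pla2g3-/-. Of 41 genes with a value 40 were higher, Ccnd1 alone being lower, beside 45.9% of all genes higher. The median was 0.97 beside -0.03 over 23498 genes. At least 2-fold higher were 17 of the 41 (41.5%), against 3.24% of all genes, and 0 were 2-fold lower, against 1.8%. At 1.5-fold, 32 were higher and 0 lower, beside 6.66% and 5.82% of all genes. Thymocyte and T cell markers moved with this result: 11 of 12 thymocyte genes and 8 of 10 T cell genes were at least 2-fold higher. Lower were 8 of 8 B cell genes (5 of them at least 2-fold) and 6 of 6 endothelial genes (4 of them at least 2-fold, median -1.11). The part of these cells in the result was not tested. Between the challenged arrays, which share no array with that comparison, 26 of 40 genes were higher in cells labelled Pla2g3-/- and 14 lower. Of all genes, 39.9% were higher and 60.1% lower there. The median of the 40 was 0.61, beside -0.05 over 23408 genes. Of the 40, only Cenpa was at least 2-fold higher and only Mcm3 at least 2-fold lower, against 3.86% and 2.48% of all genes. At 1.5-fold, 21 were higher and 3 lower, beside 7.89% and 7.17% of all genes. All 19 mitotic genes were among the higher genes, and all 8 licensing genes among the lower. Past the scanner error were all 19 mitotic genes but 6 of the 8 licensing genes, Cdt1 and Cdc6 lying within it. The share of all genes past the scanner error was not counted for this comparison, so these counts have no background beside them. A second Mcm3 probe gave 0.01. Thymocyte markers also differed between the challenged arrays, their median being 1.07, and 6 of 12 were past 2-fold towards the cells labelled Pla2g3-/-. So were 6 of 7 neutrophil markers (median 1.74), 4 of 8 macrophage markers (median 1.03) and 4 of 10 T cell markers (median 0.96). Their part there was not tested either.

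**Figure D2:**
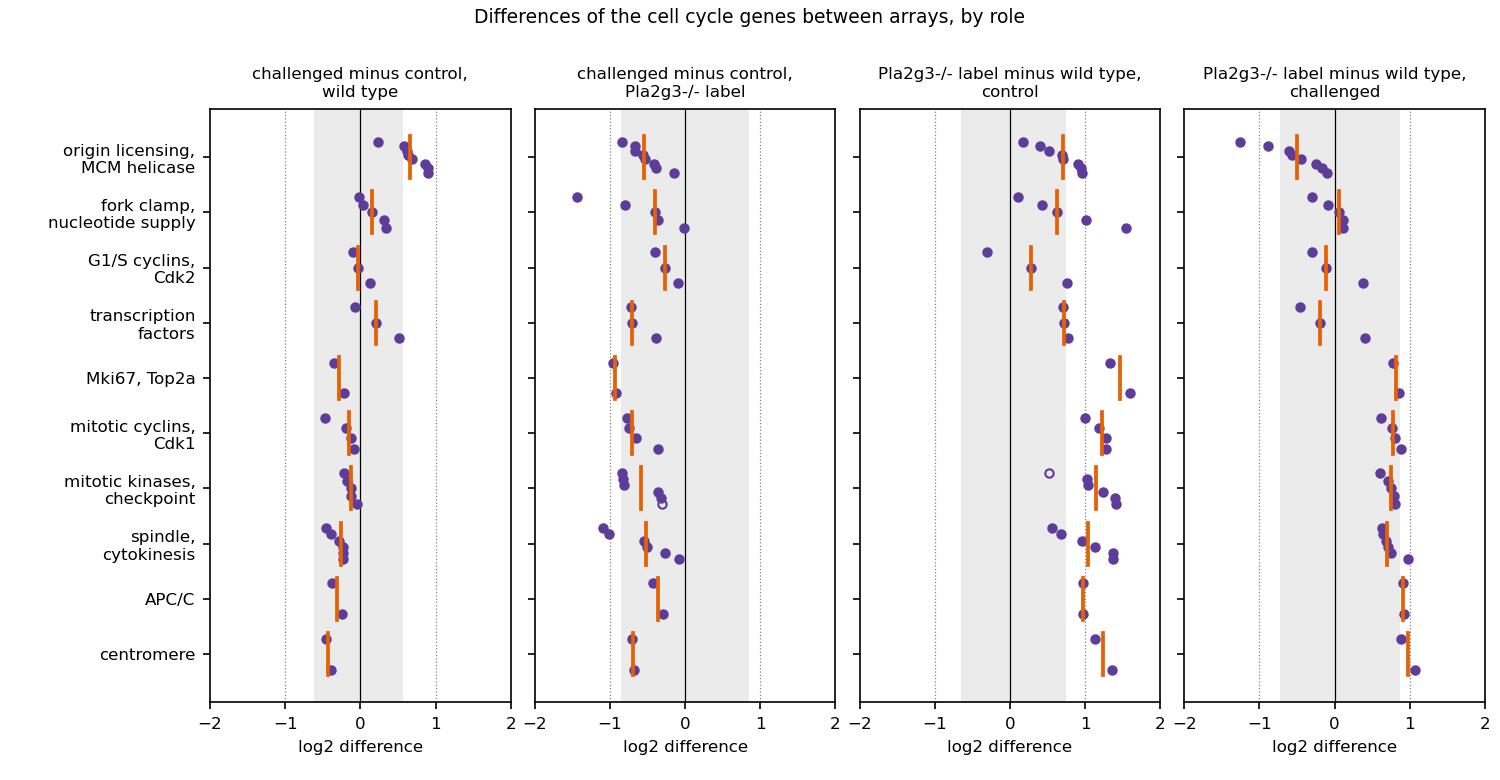
Log2 differences of the genes in each of 4 comparisons, by role, with 1 point per gene. Orange bars are medians, open points are bounds, grey bands run from the 5th to the 95th percentile of all genes in that comparison and dotted lines mark 2-fold. Licensing genes lie right of 0 for challenge in wild type and left of 0 for genotype under challenge, whereas the mitotic groups lie on the opposite side in both.

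The licensing genes load the replicative helicase. Mcm5, a subunit of that helicase, had levels of 0.34 and 0.95 on the challenged arrays labelled Pla2g3-/- and wild type, and of 1.00 and 0.06 on the control arrays labelled Pla2g3-/- and wild type. The challenged wild-type array and the control array labelled Pla2g3-/- were thus high and close to each other, and the remaining pair low. Its difference with challenge was -0.66 in cells labelled Pla2g3-/- and 0.90 in wild-type cells. Mcm6, another subunit, had levels of 2.70 and 3.58 on the challenged arrays labelled Pla2g3-/- and wild type, against 3.36 and 2.95 on the control arrays labelled Pla2g3-/- and wild type. Here the challenged wild-type array was highest and the challenged array labelled Pla2g3-/- lowest, a difference of -0.88 between the labels under challenge. Mcm2 had levels of -0.71 and -0.15 on the challenged arrays labelled Pla2g3-/- and wild type, and of -0.29 and -1.005 on the control arrays labelled Pla2g3-/- and wild type, and its challenge difference was -0.42 in cells labelled Pla2g3-/- and 0.86 in wild-type cells. Mcm4 and Mcm7, the subunits that with Mcm6 form the helicase core, were 0.62 and 0.58 higher with challenge in wild-type cells, and -0.15 and -0.56 different with challenge in cells labelled Pla2g3-/-. The Mcm7 probe is placed on chromosome 16 by the files, while the gene lies on 5, and its values are less sure for that.

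The loaders Cdt1 and Cdc6 were 0.68 and 0.23 higher with challenge in wild-type cells. Cdt1, which brings the helicase to the origin, had levels of 0.99 and 1.15 on the challenged arrays labelled Pla2g3-/- and wild type, and of 1.37 and 0.46 on the control arrays labelled Pla2g3-/- and wild type. Cdc6, the ATPase that works with it, had levels of -3.93 and -3.82 on the challenged arrays labelled Pla2g3-/- and wild type, and of -3.09 and -4.05 on the control arrays labelled Pla2g3-/- and wild type. For Cdc6 the control array labelled Pla2g3-/- stood alone, 0.97 above the wild-type control, while the challenged arrays differed by -0.11, which is within the scanner error. A second Cdc6 probe gave 0.99 and -0.28 for the same differences. As a group, the 8 licensing genes had a median challenge difference of -0.54 in cells labelled Pla2g3-/- and 0.66 in wild-type cells, and a median genotype difference of -0.50 with challenge and 0.70 without.

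Mcm3 was the licensing gene whose genotype difference depended on the probe. The probe used for it, brighter on average over the 4 arrays (mm9, chr1:20793119-20793178) had levels of 0.72 and 1.97 on the challenged arrays labelled Pla2g3-/- and wild type, and of 1.25 and 1.08 on the control arrays labelled Pla2g3-/- and wild type. A second probe (chr1:20793136-20793195) had levels of 1.30 and 1.29 on the challenged arrays labelled Pla2g3-/- and wild type, and of 1.85 and 0.34 on the control arrays labelled Pla2g3-/- and wild type. It was thus above the first on both arrays labelled Pla2g3-/- and below it on both wild-type arrays. It overlaps the first by 43 bases that differ at 1 position, written A14G, counted from the 5′ end of the 30-base windows below, with the second probe's base first. The windows are shown because this difference separates probes that otherwise read the same stretch, and the capital marks it.
Mcm3 second probe: aagctttctttgcAattagactagtatgta
Mcm3 first probe: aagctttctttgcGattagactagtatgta
With challenge the probes gave nearly equal differences, -0.53 (first) and -0.54 (second) in cells labelled Pla2g3-/-, and 0.89 and 0.95 in wild-type cells. Between the genotype labels they did not: the first probe gave -1.25 with challenge and 0.17 without, and the second 0.01 and 1.51. The 2-fold lower call for Mcm3 under challenge therefore belongs to 1 of its 2 probes, and the cause of the gap between the probes was not tested.

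At the fork, Pcna and Tk1 had the signs of the licensing genes in all 4 comparisons. In the genotype comparison under challenge Tk1 lay within the scanner error, at -0.09. Rrm1 and Rrm2 had these signs in all but that comparison, where they too lay within the scanner error. With challenge in wild-type cells Rrm1 and Rrm2, at 0.15 and 0.04, were also within it. Pcna, the sliding clamp, had levels of 3.14 and 3.44 on the challenged arrays labelled Pla2g3-/- and wild type, and of 3.54 and 3.11 on the control arrays labelled Pla2g3-/- and wild type. Its difference with challenge was -0.40 in cells labelled Pla2g3-/- and 0.34 in wild-type cells. Tk1, the thymidine kinase of the salvage route, had levels of -0.43 and -0.34 on the challenged arrays labelled Pla2g3-/- and wild type, against 0.37 and -0.65 on the control arrays labelled Pla2g3-/- and wild type. The control array labelled Pla2g3-/- was the high sample for Tk1, at 1.02 over the wild-type control. Rrm2, the small subunit of ribonucleotide reductase whose amount follows S phase, had levels of 0.00 and -0.06 on the challenged arrays labelled Pla2g3-/- and wild type, and of 1.44 and -0.10 on the control arrays labelled Pla2g3-/- and wild type. On 3 arrays Rrm2 was thus level, and it was 1.54 higher on the remaining control array, 2.91-fold over wild type. Its large-subunit partner Rrm1 showed the same order with a smaller step, 0.62 between the control arrays and 0.11 between the challenged arrays. Tyms, thymidylate synthase, differed by at most 0.11 in the 4 comparisons, within the scanner error of each. The Rrm2 and Pcna probes are both placed on chromosome 19 by the files, while Rrm2 lies on 12 and Pcna on 2.

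Of the genes of the G1 to S step, Ccnd1 and Cdk2 differed by at most 0.30 in the 4 comparisons. Ccnd1, cyclin D1, which carries growth signals to the cycle, had levels of 3.90 and 4.20 on the challenged arrays labelled Pla2g3-/- and wild type, and of 4.004 and 4.31 on the control arrays labelled Pla2g3-/- and wild type. It was the member lower with the Pla2g3-/- label in both conditions by the same amount, -0.30. Cdk2, the S phase kinase, ranged from -3.17 on the wild-type control array to -2.88 on the control array labelled Pla2g3-/-. Ccne1, a cyclin partner of Cdk2, was 0.38 higher with challenge and 0.76 higher without in cells labelled Pla2g3-/-, but a dimmer probe gave -0.03 and -0.45. Ccne2 was not well above background on any array and has no value.

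Of the 3 transcription factors of the set, E2f1 and Mybl2 were highest on the control array labelled Pla2g3-/- and next highest on the challenged wild-type array, whereas Foxm1 was lowest on the challenged wild-type array. E2f1, an activator of licensing genes, had levels of -2.44 and -1.98 on the challenged arrays labelled Pla2g3-/- and wild type, and of -1.73 and -2.49 on the control arrays labelled Pla2g3-/- and wild type. It was -0.72 different with challenge in cells labelled Pla2g3-/- and 0.51 higher with challenge in wild-type cells, the order seen for the helicase genes. Foxm1, an activator of mitotic genes, had levels of -2.05 and -2.45 on the challenged arrays labelled Pla2g3-/- and wild type, and of -1.67 and -2.38 on the control arrays labelled Pla2g3-/- and wild type. Its differences between the labels, 0.40 with challenge and 0.71 without, had the same sign, as for the mitotic genes, although a dimmer Foxm1 probe gave 0.24 and 0.01. Mybl2, the B-Myb factor that joins the MuvB complex at mitotic promoters, was -0.20 different under challenge and 0.71 higher without. Its probe is placed on chromosome 19 by the files and the gene on 2, and a second probe on 2 gave -0.47 and 0.26.

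Mki67 and Top2a, the usual tissue markers of dividing cells, followed the mitotic order. Mki67, which coats mitotic chromosomes, had levels of 0.55 and -0.22 on the challenged arrays labelled Pla2g3-/- and wild type, and of 1.47 and 0.13 on the control arrays labelled Pla2g3-/- and wild type. Top2a, the topoisomerase that untangles sister chromatids, had levels of -1.64 and -2.49 on the challenged arrays labelled Pla2g3-/- and wild type, and of -0.68 and -2.28 on the control arrays labelled Pla2g3-/- and wild type. Within each condition the array labelled Pla2g3-/- was higher, and within each label the challenged array was lower. The Top2a difference between control arrays, 1.59 or 3.02-fold, was the largest of the 40 genes measured on both control arrays. A second Mki67 probe gave 0.85 and 1.47 between the labels with and without challenge, where the first gave 0.77 and 1.33.

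The mitotic cyclins and Cdk1 trigger entry into mitosis, and all 4 genes were higher with the Pla2g3-/- label in both conditions. Ccnb2, cyclin B2, had levels of 0.75 and -0.14 on the challenged arrays labelled Pla2g3-/- and wild type, and of 1.52 and 0.33 on the control arrays labelled Pla2g3-/- and wild type. Its wild-type difference with challenge, -0.47, was the lowest of the 40 genes. Ccnb1 and Ccna2, cyclins B1 and A2, were each 1.27 higher between the control arrays. Under challenge the same genes were 0.80 and 0.61 higher in cells labelled Pla2g3-/-. Cdk1, their kinase, had levels of -0.99 and -1.75 on the challenged arrays labelled Pla2g3-/- and wild type, and of -0.63 and -1.62 on the control arrays labelled Pla2g3-/- and wild type. The wild-type arrays were close for Cdk1, -0.13 with challenge, and both arrays labelled Pla2g3-/- lay above them. Of the other Cdk1 probes, both much dimmer, 1 gave genotype differences of 0.62 with challenge and 0.999 without, and the other 0.43 and 0.16.

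Among the kinases and checkpoint genes, Birc5 and Bub1 differed most between the control arrays. Birc5, survivin, a subunit of the chromosomal passenger complex, had levels of 1.56 and 0.84 on the challenged arrays labelled Pla2g3-/- and wild type, and of 2.39 and 0.97 on the control arrays labelled Pla2g3-/- and wild type. All 3 Birc5 probes agreed on the control arrays, with differences of 1.33, 1.37 and 1.42. Bub1, a spindle checkpoint kinase, is printed 10 times on each array, with an SD between spots of 0.12 to 0.16, and had levels of -3.61 and -4.40 on the challenged arrays labelled Pla2g3-/- and wild type, and of -2.78 and -4.18 on the control arrays labelled Pla2g3-/- and wild type. Its genotype differences, 0.80 with challenge and 1.40 without, were larger than that spot error. Bub1b, the checkpoint partner BubR1, was 0.61 and 1.24 higher in cells labelled Pla2g3-/- with and without challenge. Aurka and Plk1, the kinases of centrosome maturation and mitotic entry, were nearly matched, at 0.75 and 0.79 higher with challenge and 1.03 and 1.04 higher without. Aurkb, the passenger complex kinase, was well above background on the control array labelled Pla2g3-/- only, so that it was at least 1.44-fold higher there than on the wild-type control array.

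The spindle genes included the lowest challenge differences of the mitotic set in cells labelled Pla2g3-/-. Nusap1, which bundles spindle microtubules, had levels of -1.80 and -2.55 on the challenged arrays labelled Pla2g3-/- and wild type, and of -0.71 and -2.09 on the control arrays labelled Pla2g3-/- and wild type. It was -1.09 different with challenge in cells labelled Pla2g3-/- and -0.46 in wild-type cells. Kif11, the kinesin that pushes spindle poles apart, had levels of -3.65 and -4.29 on the challenged arrays labelled Pla2g3-/- and wild type, and of -2.64 and -4.00 on the control arrays labelled Pla2g3-/- and wild type. It was -1.02 different with challenge in cells labelled Pla2g3-/- and -0.29 in wild-type cells, so that the challenged array was the lower of each pair for both genes. Tpx2, which activates Aurka on the spindle, was 0.97 and 1.13 higher in cells labelled Pla2g3-/- with and without challenge, but 0.13 and 0.25 by a second probe. Prc1, Kif20a and Kif23, which build the midzone and complete cytokinesis, had the smallest spindle differences between the control arrays, at 0.68, 0.96 and 0.55. Kif23 differed by -0.08 with challenge in cells labelled Pla2g3-/-, within the scanner error.

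The anaphase and centromere genes were all higher with the Pla2g3-/- label in both conditions. Cdc20, the activator of the anaphase-promoting complex, had levels of 1.60 and 0.69 on the challenged arrays labelled Pla2g3-/- and wild type, and of 1.90 and 0.93 on the control arrays labelled Pla2g3-/- and wild type. Ube2c, the ubiquitin-conjugating enzyme of that complex, had levels of 0.22 and -0.70 on the challenged arrays labelled Pla2g3-/- and wild type, and of 0.65 and -0.32 on the control arrays labelled Pla2g3-/- and wild type. Both were higher with the label by nearly the same amount in each condition, Cdc20 by 0.91 with challenge and 0.97 without, and Ube2c by 0.92 and 0.97. Cenpa, the histone variant that marks centromeres, had levels of -1.46 and -2.52 on the challenged arrays labelled Pla2g3-/- and wild type, and of -0.78 and -2.13 on the control arrays labelled Pla2g3-/- and wild type. At 1.06 with challenge and 1.35 without, it was the gene at least 2-fold higher in both conditions. Cenpe, the kinetochore motor, was 0.88 and 1.13 higher with and without challenge.

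The challenge difference had opposite signs in the 2 genotype labels for 15 of 40 genes, all of them lower in cells labelled Pla2g3-/- and higher in wild-type cells. These were the 8 licensing genes, Pcna, Rrm1, Rrm2, Tk1, Cdk2, E2f1 and Mybl2. How many of all genes had opposite signs was not counted, so 15 of 40 cannot be called many or few. Of all genes tested, 45.7% were higher with challenge in wild-type cells, and 57.6% lower in cells labelled Pla2g3-/-. For Rrm1, Rrm2, Cdk2 and Mybl2 the wild-type difference lay within the scanner error. The difference of the challenge effects, cells labelled Pla2g3-/- minus wild-type cells, had a median of -0.58 over the 40 genes beside -0.03 over 21812 genes. It was negative for 37 of the 40, beside 54.4% of all genes. It was at or below -1 for 10 genes, against 2.71% of all genes, and at or above 1 for 0, against 2.83%. Of the 10 genes 7 were licensing genes. For the mitotic genes it was smaller, with a median of -0.28 and a range from -0.73 for Kif11 to 0.16 for Kif23. No test of this difference was possible with 1 array per group.

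**Figure D3:**
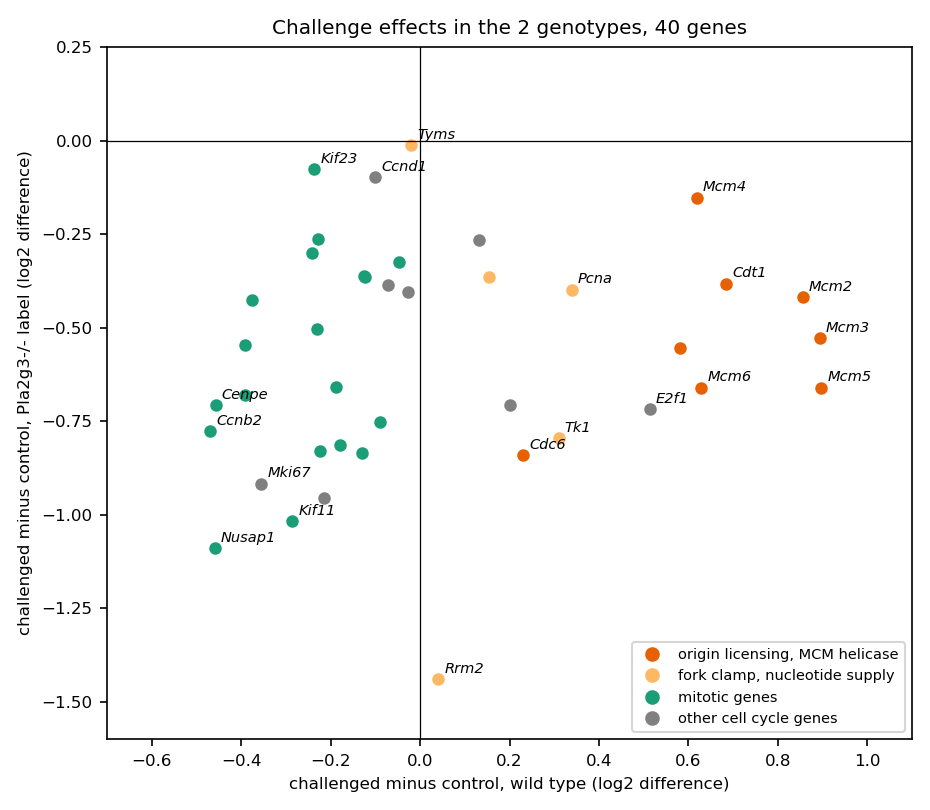
Difference with challenge in cells labelled Pla2g3-/- (vertical axis, log2) against that in wild-type cells (horizontal axis, log2), with 1 point for each of 40 genes, coloured by role. All points lie below 0 on the vertical axis, licensing genes lie at 0.23 to 0.90 on the horizontal axis and mitotic genes at -0.47 to -0.05.

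The fit that uses all 4 arrays at once, limma with additive effects of genotype label and challenge and 1 residual degree of freedom, called none of the 40 genes. For the label it tested 23202 genes and called 0 at an adjusted p below 0.05, although 2735 (11.8%) had an unadjusted p below 0.05, among them 24 of the 40. The lowest adjusted p from limma among the 40 was 0.147, for Cdc20, with a difference of 0.94 and a standard error of 0.09, higher with the label in both conditions. For challenge limma called 1 of 23202 genes (0.00431%), none of the 40, and 10 of the 40 had an unadjusted p below 0.05 beside 14.7% of all genes. Ccnb2 was lowest there, at -0.62 with an adjusted p from limma of 0.24. Because the fit takes effects to add up, genes whose challenge effects differ between the labels, such as the licensing genes, carry that difference as error.

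Another 156 genes of the cell cycle were taken in 7 lists, also chosen with earlier results of these data known. The list of origin firing factors, polymerases and their partners had 35 genes, of which 34 were lower with challenge in cells labelled Pla2g3-/- (median -0.41) and 31 higher with challenge in wild-type cells (median 0.34). Under challenge 31 of these 35 were lower in cells labelled Pla2g3-/-, with a median of -0.22, and without challenge 33 were higher, with a median of 0.54. Timeless, a fork protection factor, had levels of -1.12 and -0.48 on the challenged arrays labelled Pla2g3-/- and wild type, and of -0.51 and -1.58 on the control arrays labelled Pla2g3-/- and wild type, and was the only gene of the list at least 2-fold higher with challenge in wild-type cells. Orc1, the largest subunit of the origin recognition complex, was -0.63 different with challenge in cells labelled Pla2g3-/- and 0.77 higher in wild-type cells. Gmnn, geminin, which binds and blocks Cdt1, went another way, at -1.35 with challenge in cells labelled Pla2g3-/- and -0.32 in wild-type cells.

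Genes of later steps mostly had the signs of the mitotic members between the labels. Of 23 further spindle and cytokinesis genes, 22 were higher in cells labelled Pla2g3-/- under challenge (median 0.41) and all 23 without (median 0.76). With challenge in wild-type cells 5 of the 23 were higher (median -0.19), and 11 of 29 kinetochore and condensin genes (median -0.08), against 0 of the 19 mitotic members. Kif15, a spindle kinesin, was 0.84 and 2.03 higher with and without challenge, and Kif4, a chromosome-bound kinesin, 1.01 and 1.12. Of 30 kinetochore and condensin genes, 23 of 29 with a value were higher under challenge (median 0.44) and 28 of 30 without (median 1.09). Pttg1, securin, which holds separase back until anaphase, was the 1 gene of that list at least 2-fold lower with the label in each condition, with levels of 1.52 and 3.39 on the challenged arrays labelled Pla2g3-/- and wild type, and of 1.83 and 3.32 on the control arrays labelled Pla2g3-/- and wild type. It was -1.88 different with challenge and -1.48 without, while challenge differences were -0.31 in cells labelled Pla2g3-/- and 0.08 in wild-type cells.

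**Figure D4:**
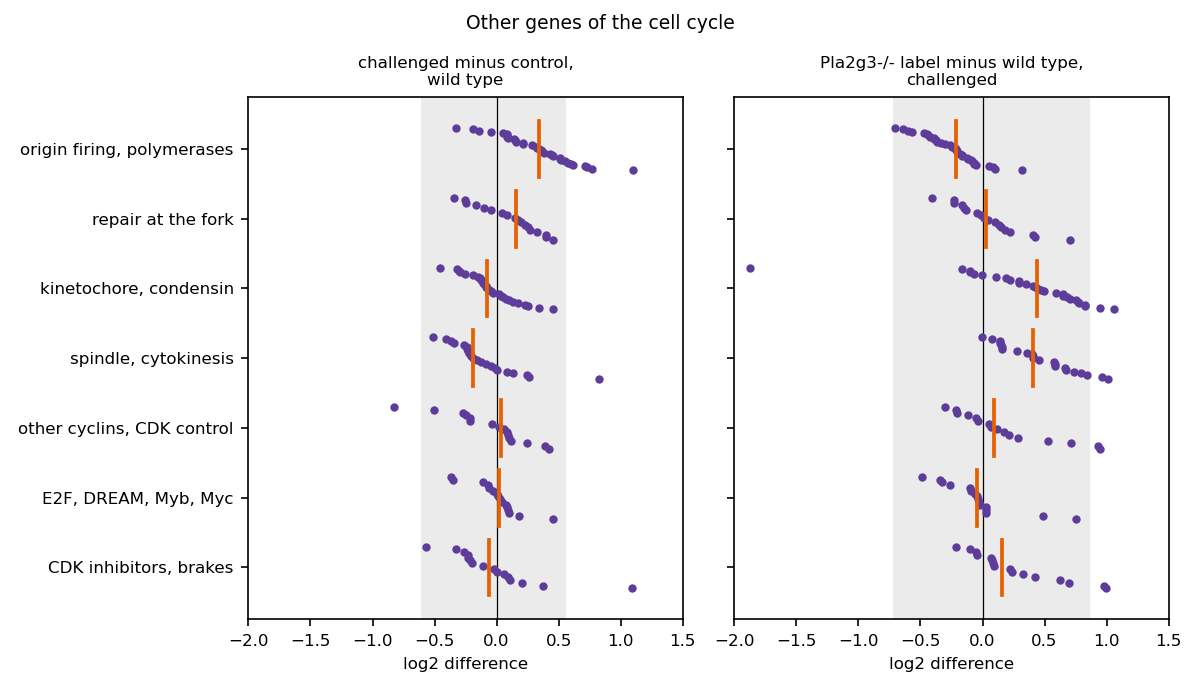
Log2 differences of 156 further cell cycle genes in 7 lists, with 1 point per gene that has a value, for challenge in wild-type cells and for genotype under challenge (Pla2g3-/- label minus wild type). Orange bars are medians and grey bands run from the 5th to the 95th percentile of all genes. Origin and polymerase genes have a median of 0.34 for challenge in wild type and of -0.22 for genotype under challenge, and the point far to the left is Pttg1.

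The 16 further cyclins and CDK regulators had medians between -0.45 and 0.43 in the 4 comparisons, and Wee1, the kinase that holds Cdk1 inactive, was -0.82 and -0.83 different with challenge in cells labelled Pla2g3-/- and wild type. Among 16 inhibitors and brakes, Gadd45g, a stress-induced growth arrest gene, was 2.70 higher with challenge in cells labelled Pla2g3-/- and 1.09 higher in wild-type cells. Cdkn1a, the p21 inhibitor, was 0.98 higher with challenge and 0.60 higher without in cells labelled Pla2g3-/-. Of 16 E2F, DREAM, Myb and Myc genes with a value, E2f2 stood out on the control arrays, 1.78 higher with the label, against 0.03 higher under challenge. Myc, a growth-promoting factor, had the opposite sign, -1.19 between the control arrays, and was -0.02 different between the challenged arrays. The 18 repair genes with a value had medians of 0.03 with challenge and 0.79 without between the labels, and of -0.52 with challenge in cells labelled Pla2g3-/- and 0.16 in wild-type cells. Between the labels the checkpoint adaptor Clspn was -0.04 different with challenge and 1.68 higher without.

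Marker genes of other cells moved with several of these differences. Rag1, the recombinase subunit of developing lymphocytes, had levels of -2.51 and -4.96 on the challenged arrays labelled Pla2g3-/- and wild type, and of 1.43 and -4.37 on the control arrays labelled Pla2g3-/- and wild type. All 12 thymocyte markers and all 10 T cell markers were well above background on every array. The summed T cell level was 4.31 and 2.58 on the challenged arrays labelled Pla2g3-/- and wild type, and 29.9 and 4.19 on the control arrays labelled Pla2g3-/- and wild type. The thymocyte and T cell sums were thus highest on the same array as 35 of the 40 cell cycle genes, and lowest on the same array as the 19 mitotic genes. Of single markers, Rag2, Dntt, Ptcra and Arpp21 were instead lowest on the wild-type control array. Cd247 was highest on the challenged wild-type array and lowest on the challenged array labelled Pla2g3-/-. B cell markers were highest on the wild-type control array and also lowest on the challenged wild-type array, with a summed level of 2.38 and 2.20 on the challenged arrays labelled Pla2g3-/- and wild type, and 2.37 and 5.45 on the control arrays labelled Pla2g3-/- and wild type. Neutrophil markers summed to 89.2 and 63.3 on the challenged arrays labelled Pla2g3-/- and wild type, against 45.9 and 58.2 on the control arrays labelled Pla2g3-/- and wild type. Of these sums the single probe of Csf3r, a growth factor receptor of neutrophils, gave 32.7 and 47.4 on the challenged arrays labelled Pla2g3-/- and wild type, against 37.3 and 53.5 on the control arrays labelled Pla2g3-/- and wild type. Its differences lay between -0.54 and -0.17 in the 4 comparisons. The median of the 7 neutrophil markers was 2.81 higher with challenge in cells labelled Pla2g3-/- and 1.67 higher in wild-type cells, and 1.74 higher with the label under challenge and 0.71 higher without. Macrophage markers summed to 8.07 and 3.22 on the challenged arrays labelled Pla2g3-/- and wild type, and to 3.65 and 4.80 on the control arrays labelled Pla2g3-/- and wild type. Their median difference with challenge was 0.99 in cells labelled Pla2g3-/- and -0.01 in wild-type cells, where Marco, a scavenger receptor, was -2.01 different. The licensing genes summed to 18.1 and 28.7 on the challenged arrays labelled Pla2g3-/- and wild type. On the control arrays labelled Pla2g3-/- and wild type they summed to 25.9 and 17.9. The licensing genes were thus high on the challenged wild-type array, where the thymocyte and T cell sums were at their lowest. Epithelial markers summed to between 239 and 264 on the 4 arrays. The part of any of these cells in the cell cycle differences was not tested.

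**Figure D5:**
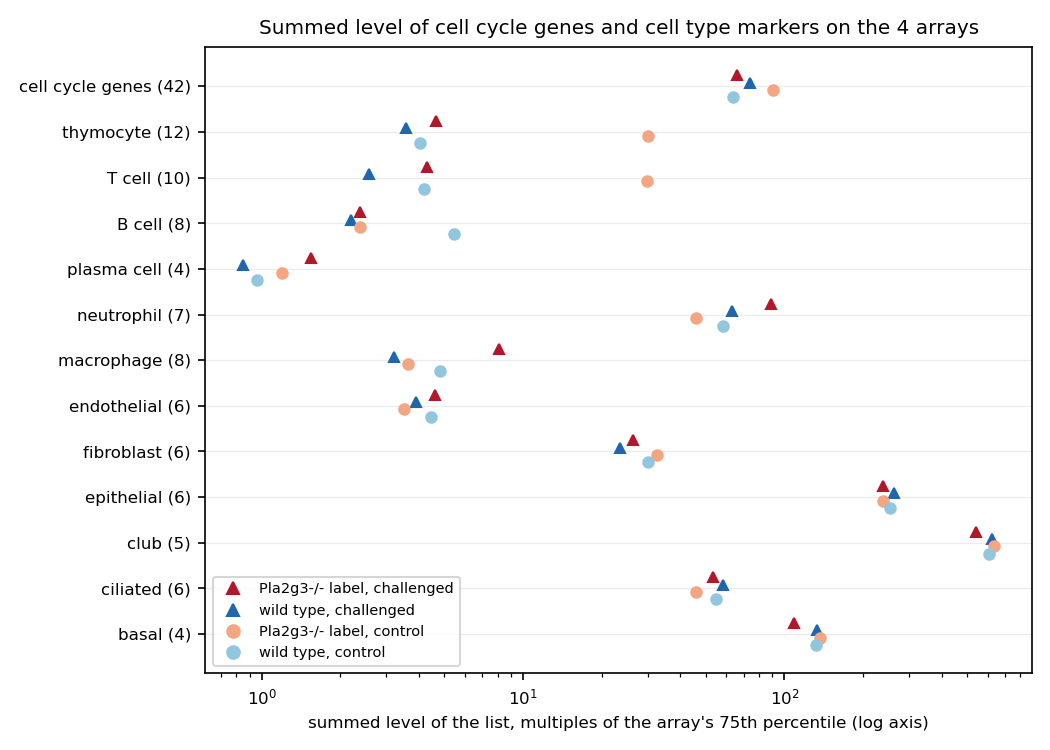
Summed level of the 42 cell cycle genes and of cell type marker lists on each of the 4 arrays, in multiples of the array's 75th percentile, on a log axis, with the number of genes measured in brackets. The control array labelled Pla2g3-/- stands apart for thymocyte markers (30.1, against 3.57 to 4.64 on the other arrays) and T cell markers, and the epithelial lists lie close together. On those other arrays the thymocyte sum rests most on Cd4.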

How the data were processed

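The members and gene lists were chosen with earlier results of these data known. Per the file headers, Agilent Feature Extraction 11.5.1.1 gave the intensity of each spot in the deposited files, with a background already subtracted. The value table deposited by the authors also holds intensity values and equalled the processed signal divided by each array's 75th percentile (range of the log2 ratio at most 1.59e-06 on an array), with column medians of 0.0850 and 0.0860 for the challenged arrays labelled Pla2g3-/- and wild type and 0.0879 and 0.0875 for the controls. Per the labels' protocols, 200 ng of RNA was labelled for each array.

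From the deposited intensity, log2 minus the array's 75th percentile was computed (Python 3.11.15, pandas 2.3.3) over 43020 spots other than controls. Spots marked as outliers (128 to 155 per array) did not enter, no spot was saturated, and the local background was 25 to 25.5 units. Of 39429 probes, 28330 took a symbol through a RefSeq accession, 8094 kept the name in the file, and 3005 without a gene name were not used. A gene is represented by its brightest probe. A gene well above background on only 1 of 2 arrays compared has a bound, set on the dim array at its own signal or at the lowest signal well above background, whichever was higher, and a gene on neither has no value. Spots of 399 probes printed 10 times had a median SD of 0.07, and the number of arrays limits the precision.

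Groups were taken from the labels. Differences between 2 arrays were counted at 2-fold and described beside all genes. The single test was an additive fit of genotype and challenge with limma 3.58.1 in R 4.3.3, with a trend and Benjamini-Hochberg adjustment at 0.05, over 23202 genes well above background on at least 2 arrays. The computation was tested on simulated data. All 42 members are named, and other lists could each have up to 3 genes per comparison named, those of largest difference, besides Pla2g3 and fixed marker genes. Alternatives were normexp background correction (offset 50), quantile normalization, the mean of probes, filters on dim probes, centring on the median, 1.5-fold, the other control array, and limma without a trend or with a robust prior. Leaving out 4 genes whose probe the files place on another chromosome was chosen after seeing the data. The 4 arrays lie on 1 slide, and position on it and group cannot be told apart.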

Additional observations from a re-analysis of the deposited data

Results flagged for a closer look

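For 15 of the 40 cell cycle genes the challenge difference was negative in cells labelled Pla2g3-/- and positive in wild-type cells. With 1 array per group this difference between the labels was not tested. The share of all genes with opposite signs was not counted, so 15 of 40 cannot be called many or few. The difference of the challenge differences, cells labelled Pla2g3-/- minus wild-type cells on the log2 scale, was -1.07 for Cdc6 and -1.07 for Cdt1, the helicase loaders. For the helicase subunits it was -1.27 for Mcm2, -1.42 for Mcm3, -0.77 for Mcm4, -1.56 for Mcm5, -1.29 for Mcm6 and -1.14 for Mcm7. At the fork it was -0.74 for Pcna, -0.52 for Rrm1, -1.48 for Rrm2 and -1.10 for Tk1. The kinase Cdk2 had -0.40, and the factors E2f1 and Mybl2 had -1.23 and -0.91. The control array labelled Pla2g3-/- enters each of these values, and the thymocyte sum on it was 30.1, against 4.04 on the wild-type control array. Groups of a single array allow no check for outlying samples.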

How the results depend on the processing

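No paired analysis was possible because each group has 1 array, and for the same reason no replicate could be left out. The slide could not be used as a block, since all 4 arrays share it. Of the summary results of the 42 genes under the alternatives, 97 stayed the same, 11 moved and 1 reversed. A median stayed the same if it changed by less than 0.09, and a count if it was unchanged or within a factor of 1.5. The 97 include counts of 0 that stayed 0, and a filter that left the same 40 genes, so the tally is no measure of robustness. With the control array of the other genotype label, the median challenge difference was 0.39 in cells labelled Pla2g3-/- (reversed, 0 genes 2-fold lower) and -0.91 in wild-type cells (20 genes 2-fold lower). Rrm2, Kif11 and Nusap1 then reversed in cells labelled Pla2g3-/-, to 0.10, 0.35 and 0.29. At 1.5-fold the counts were 19 lower with challenge in cells labelled Pla2g3-/- (10.0% of all genes), 6 higher with challenge in wild-type cells (4.61%), 21 higher and 3 lower between the labels under challenge (7.89% and 7.17%), and 32 higher without (6.66%). Normexp gave a median of 0.43 and 0 genes 2-fold higher between the labels under challenge, and the mean of probes gave 0 lower there. The signs of all licensing and mitotic genes with a value held in the 4 comparisons under normexp, quantile normalization, the mean of probes, both filters and centring on the median, except that without a filter Aurkb, not well above background on the wild-type arrays, was 0.38 higher with challenge in wild-type cells. In the limma fits no member was called under any alternative, with the lowest adjusted p from 0.0892 to 0.34 for the label and from 0.194 to 0.437 for challenge.

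Counts over all genes depended on the treatment of dim probes. Under normexp, genes 2-fold higher and lower numbered 376 and 319 (against 905 and 804) with challenge in cells labelled Pla2g3-/-, 128 and 57 (against 429 and 399) with challenge in wild-type cells, 288 and 144 (against 903 and 581) between the labels under challenge, and 358 and 96 (against 761 and 422) without. With genes well above background on all 4 arrays only, they were 244 and 214 with challenge in wild-type cells, 603 and 367 between the labels under challenge and 562 and 249 without. With no filter they were 1283 and 1292, 765 and 715, 1237 and 1203, and 1025 and 821 in the order first given. In limma, the genes called over all genes ranged from 0 to 10 for the label and from 0 to 5 for challenge. Signal over background limited Aurkb and Ccne2 alone among the 42.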
